A study of Mus musculus with 8 samples.

Results

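The comparison described here is of dCD against WT epiblast-like cells (EpiLC) on day 2, with 2 libraries of each genotype out of 8 libraries in the series. Bulk RNA-seq values of the 4 EpiLC libraries were used for 32334 listed genes, and the 11893 genes that reached 1 in 2 or more of these libraries were tested. WT cells are the male mouse embryonic stem cell (ESC) line R1. The dCD line was derived from R1 as a clonal line and carries point mutations that remove the catalytic activity of both MLL3 (KMT2C) and MLL4 (KMT2D), so the genotype cannot be told apart from that clone. Cells of both genotypes were adapted to serum-free medium with LIF, 0.4 µM PD0325901 (a MEK inhibitor) and 3 µM CHIR99021 (a GSK3 inhibitor), and were then kept for 2 days on fibronectin with activin A at 20 ng/ml, bFGF at 12 ng/ml and knockout serum replacement at 10 µl/ml. The comparison asks which transcripts differ in EpiLC that lack this methyltransferase activity.

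MLL3 and MLL4 place most of the monomethyl mark on histone H3 lysine 4 (H3K4me1) at enhancers, the distal elements that raise transcription of their target genes. EpiLC are a short-lived state between naive ESC and primed epiblast cells, in which naive genes such as Esrrb and Klf4 are being switched off while formative genes such as Fgf5, Otx2, Pou3f1 and Dnmt3b are on. Cells in this state can still be directed to PGCLC, the culture counterpart of primordial germ cells.

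The formative markers of EpiLC were present in each library. Fgf5 stood at 85.2 and 78.8 in WT against 63.5 and 58.0 in dCD, and Pou3f1 at 56.5 and 51.2 in WT and 58.4 and 50.9 in dCD. Pou5f1, which encodes OCT4, had values of 1527, 1707, 1834 and 1387 in WT 1, WT 2, dCD 1 and dCD 2. The mutated genes themselves were transcribed in both genotypes. Kmt2c stood at 5.79 and 3.55 in WT against 2.57 and 5.97 in dCD, and Kmt2d at 7.15 and 4.15 in WT and 2.72 and 7.59 in dCD. Their groups overlapped, and a level cannot check a point mutation.

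The replicate differences of the 2 genotypes ran along a shared axis, and this bears on every count below. The standard deviation across genes of the replicate difference (replicate 1 less replicate 2, log2 scale) was 0.296 in WT and 0.528 in dCD, and the WT and dCD differences correlated at -0.616 over the 11893 genes, which are not independent of each other. WT 1 thus resembled dCD 2, and WT 2 resembled dCD 1. Both differences followed transcript length (Spearman's rho 0.561 in WT and -0.604 in dCD). In the shortest quintile of transcripts (median 1158 bases) the median log2 difference was 0.46 for dCD 1 less WT 1 but -0.16 for dCD 2 less WT 2, and in the longest (median 6646 bases) it was -0.43 and 0.25. The genotype difference itself ran from 0.13 in the shortest to -0.10 in the longest quintile. Of the genes called higher 108 lay in the shortest quintile and 13 in the longest, and its part in the results was not tested beyond the fit with the length trend removed, in which 288 of the 301 genes higher and 56 of the 60 genes lower were still called.

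**Figure D1:**
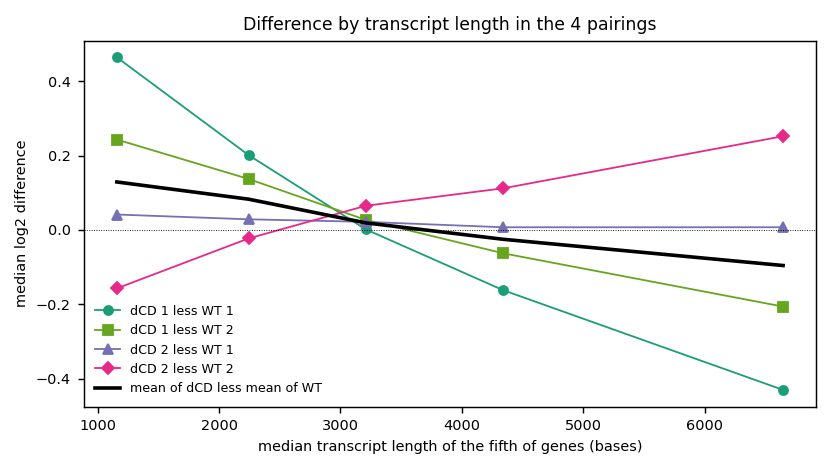
Median log2 difference (y axis) of genes grouped in quintiles by transcript length (x axis, median length in bases), for each of the 4 pairings of a dCD with a WT library (coloured lines) and for the difference of the group means (black). The pairings spread from -0.16 to 0.46 in the shortest quintile and from -0.43 to 0.25 in the longest, and they nearly meet in the middle one.

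Most of the genes that passed the test were higher in dCD. Of 11893 genes, 361 had an adjusted p under 0.05 (3.04%), 301 of them higher (2.53%) and 60 lower (0.504%), by limma on log2(value + 1) with Benjamini-Hochberg adjustment over all genes tested. The median log2 difference of all genes was 0.02. Among the called genes 280 rose and 53 fell at least 2-fold on this scale, and 75 rose and 7 fell at least 4-fold. In 147 of the 301 genes that rose the WT mean was under 1, so many of them were near the lower end of the scale in WT, where the added 1 makes the printed difference smaller than the ratio of the values. Protein-coding genes made up 330 of the calls and annotated pseudogenes 28, and 12 called genes had the same 4 values as another called gene, so their reads cannot be assigned to either copy.

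**Figure D2:**
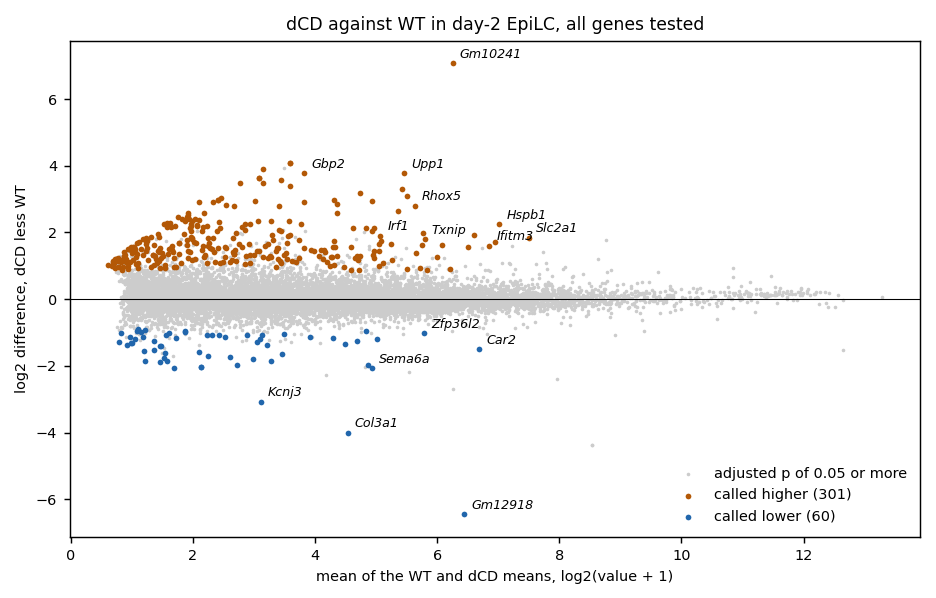
Log2 difference of dCD less WT (y axis) against the level of each gene (x axis, log2(value + 1) of the mean of both genotypes), with the 301 genes called higher in brown, the 60 called lower in blue and the other genes in grey. Calls at high levels were few, and Slc2a1, Hspb1 and Car2 are among them.

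The replicates of the called genes were close to each other. All 361 had both dCD libraries on one side of both WT libraries, an order that 26.1% of all genes tested showed in the higher and 17.9% in the lower direction. In 297 called genes every one of the 4 pairings of a dCD with a WT library differed by at least 2-fold, beside 281 higher (2.36%) and 47 lower (0.395%), together 328 (2.76%), of all genes tested. The median absolute replicate difference of the called genes was 0.10 in WT and 0.17 in dCD, against 0.16 and 0.29 over all genes, and a small replicate difference is part of what the test asks for. With either dCD library left out the calls remained, but the spread then came from the WT pair alone. Replicate differences were smaller in that pair (SD 0.296 against 0.528 in dCD), so keeping the calls was favoured in advance. Only the fits without a WT library removed calls. With WT replicate 1 left out 202 of the 301 and 35 of the 60 remained, and with WT replicate 2 left out 213 and 33 did, so that 191 genes higher and 33 lower were called whichever library was missing. These 224 genes are meant below where a call is said to hold without each library. With libraries rescaled to a common total 143 of the 301 and 22 of the 60 remained. Calls that hold without each library but not under that rescaling include those of T, Zfp57, Dmrt1, Slc2a3, Hormad2, Tuba3a, Csf1, Loxl4, Pkp3, Peg10, Grb10, Sema6a, Col1a1, Igfbp5, Xlr3c, Fam49a and Ppp4r4, with adjusted p from 0.0519 (Tuba3a) to 0.156 (Peg10). With 2 against 2 libraries an exact permutation test of a single gene cannot give a two-sided p below 0.333, so the p-values rest on the spread that limma pools over genes, and without the filter on low values no gene passed. The labels do not say whether replicates came from separate cultures, and p-values then measure only the spread between these libraries.

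Upp1, with the smallest p of all genes tested, and Car2, the most abundant gene that fell, show what such a separation looks like. Upp1 (chromosome 11, 9118103 to 9136170 in GRCm38), which encodes a uridine phosphorylase of pyrimidine salvage, was at 5.03 and 4.88 in WT and 85.8 and 75.0 in dCD (log2 3.77 ± 0.14 SE, adjusted p = 0.00814 by limma). On the other side Car2, the cytosolic carbonic anhydrase that hydrates CO2, had WT values of 149 and 154 and dCD values of 54.9 and 51.3 (log2 -1.50 ± 0.13 SE, adjusted p = 0.0186 by limma). Both calls held without each library.

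**Figure D3:**
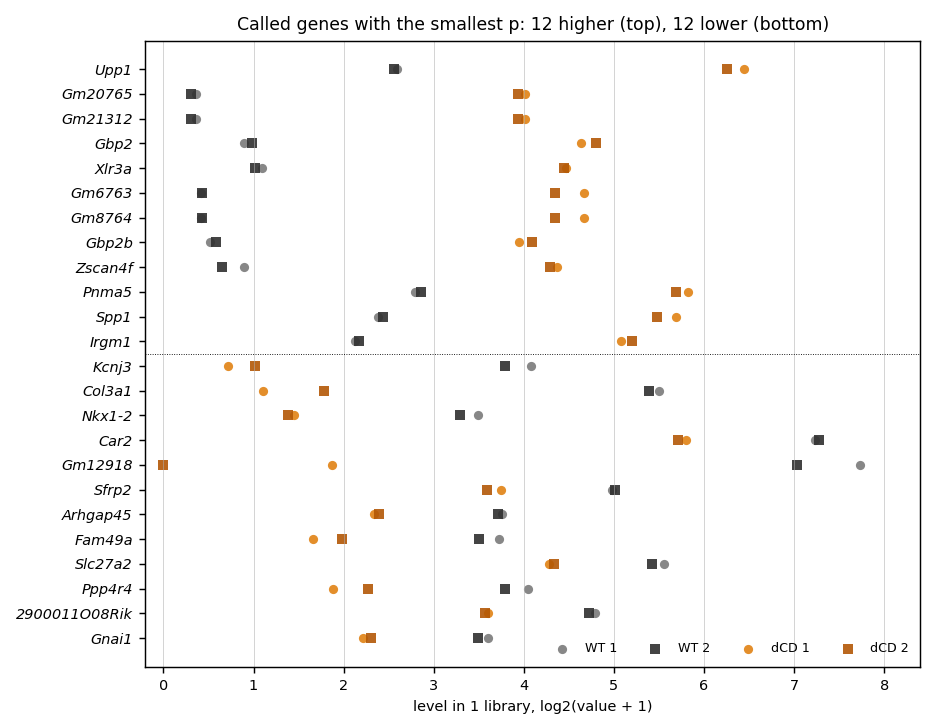
Level in each library (x axis, log2(value + 1)) of the 12 genes higher and the 12 genes lower in dCD with the smallest p among called genes with a mean of at least 5, with WT 1 and WT 2 in grey and black and dCD 1 and dCD 2 in orange and brown. The gap between genotypes is wider than the gap between replicates in all 24 genes.

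Genes induced by interferons made up the curated list with the most calls. Interferons are cytokines that, through STAT and IRF factors, switch on genes whose promoters carry an interferon-stimulated response element (ISRE) or a gamma-activated sequence. Of 49 interferon-stimulated genes listed 33 were tested, 16 rose, none fell and 17 did not pass (48.5% called higher, against 2.53% of all genes), with a median log2 difference of 1.27 beside 0.02 for all genes. Both dCD libraries lay above both WT libraries in 28 of the 33 (84.8%, beside 26.1% of all genes), and the median stayed between 1.15 and 1.33 in the 4 pairings. Only 19 of the list had a value of at least 1 in both WT libraries, so part of the tested members passed the filter through dCD.

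The promoters of 4 of the genes that rose are shown because the ISRE letters recur in them. The sequences are RefSeq windows of 250 bases before to 50 bases after the gene start in GRCm38.p6, written 5′ to 3′ on the gene's strand, at chr3:142620413-142620712 (plus) for Gbp2, chr3:142559794-142560093 (plus) for Gbp3, chr11:48871371-48871670 (minus) for Irgm1 and chr7:141010695-141010994 (minus) for Ifitm3. The ISRE was searched on both strands as a pair of GAAA words with any 2 bases between them, which reads as a pair of TTTC words where it lies on the other strand. Capitals mark the matches, and overlapping matches run together.
Gbp2: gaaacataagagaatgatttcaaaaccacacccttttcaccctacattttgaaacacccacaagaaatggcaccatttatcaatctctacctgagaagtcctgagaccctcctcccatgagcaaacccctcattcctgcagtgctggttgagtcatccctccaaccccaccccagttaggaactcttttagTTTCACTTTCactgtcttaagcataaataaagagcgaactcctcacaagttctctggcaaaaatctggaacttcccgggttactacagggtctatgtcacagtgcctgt
Gbp3: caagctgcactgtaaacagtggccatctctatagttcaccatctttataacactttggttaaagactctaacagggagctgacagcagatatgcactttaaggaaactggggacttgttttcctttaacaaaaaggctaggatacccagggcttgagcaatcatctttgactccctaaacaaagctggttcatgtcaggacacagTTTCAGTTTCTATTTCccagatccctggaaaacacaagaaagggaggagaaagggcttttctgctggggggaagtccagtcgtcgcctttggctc
Irgm1: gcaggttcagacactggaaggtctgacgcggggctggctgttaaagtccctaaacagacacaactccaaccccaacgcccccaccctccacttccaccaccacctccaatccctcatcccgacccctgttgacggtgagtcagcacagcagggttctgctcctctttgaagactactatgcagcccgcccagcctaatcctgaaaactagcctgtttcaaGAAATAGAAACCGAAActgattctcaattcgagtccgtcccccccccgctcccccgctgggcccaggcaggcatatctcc
Ifitm3: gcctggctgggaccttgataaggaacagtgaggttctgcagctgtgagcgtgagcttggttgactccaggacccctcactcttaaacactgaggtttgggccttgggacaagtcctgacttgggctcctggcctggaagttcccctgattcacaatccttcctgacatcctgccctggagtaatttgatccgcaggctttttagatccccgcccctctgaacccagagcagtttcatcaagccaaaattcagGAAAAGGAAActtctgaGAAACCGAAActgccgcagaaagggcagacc
The match was found in 7 of the 12 interferon-stimulated genes that rose and had a promoter entry (Gbp2, Gbp3, Irgm1, Irgm2, Igtp, Ifitm3 and Cxcl10), and in 3.99% of the 27025 genes in the promoter table. It was also present in 15 of the 27 tested members of the list with an entry (55.6%, beside 58.3% of those that rose). The letters TTCNNNGAA of the gamma-activated sequence were found in 5 of those 12 (Irf1, Ifitm3, Isg20, Irgm2 and Igtp) in 12 of the 27 tested members (44.4%, beside 41.7% of those that rose), and in 9.55% of all. Among all 191 genes that rose and had an entry, 15 held the ISRE letters (7.85%), and among the 34 that fell none did. A match describes the letters in the window and not a bound site.

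Guanylate-binding proteins and immunity-related GTPases, which attack the membranes around intracellular pathogens, were among the clearest members. Gbp2 was at 0.857 and 0.972 in WT and 23.8 and 26.8 in dCD (log2 3.78 ± 0.16 SE, adjusted p = 0.00814 by limma). Its neighbours Gbp3 (0.182 and 0.424 to 6.61 and 6.96) and Gbp2b (0.431 and 0.502 to 14.4 and 16.1) rose too, and these are all 3 tested genes of the stretch on chromosome 3 from 142560026 to 142638008. Gbp7 belongs to the same family, stood at 0.204 and 0.113 in WT against 1.47 and 3.25 in dCD, and did not pass (adjusted p = 0.0836). Irgm1 was at 3.37 and 3.51 in WT and 32.7 and 35.8 in dCD (log2 2.99 ± 0.15 SE), and Igtp and Irgm2 rose by log2 1.55 and 1.44.

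The transcription factors of the pathway moved unequally. Irf1, which activates both interferon promoters and antigen presentation genes, was at 12.9 and 13.3 in WT and 53.9 and 49.9 in dCD (log2 1.90 ± 0.13 SE, adjusted p = 0.0130 by limma). Stat2 (adjusted p = 0.213), Irf9 (2.72 and 2.47 to 4.67 and 4.58) and Irf8, whose groups overlapped, did not pass. Socs3, a feedback inhibitor of JAK and STAT signalling that no list held and that was picked after its values were seen, rose from 3.08 and 3.93 to 13.5 and 15.0.

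Membrane and effector genes of the list included some of the most abundant. Ifitm3, which blocks virus entry and is a marker of early germ cells, was at 51.9 and 59.7 in WT and 199 and 146 in dCD (log2 1.60 ± 0.20 SE, adjusted p = 0.0364 by limma), and its neighbour Ifitm1 at 8.28 and 8.30 in WT and 100.3 and 60.01 in dCD (log2 3.08 ± 0.27 SE). In both genes dCD 1 was the higher library. Ifitm2, from the same cluster, overlapped between genotypes (255 and 303 in WT, 386 and 280 in dCD). Oasl2, Nmi, Rtp4, Zbp1, Ifi27 and the chemokine gene Cxcl10 rose by log2 1.38 to 2.19. Of the 16 calls, 14 held without each library. Isg20 lost its call without WT replicate 2 (adjusted p = 0.0836), and Parp9 without WT replicate 1 (0.0811) or 2 (0.19). With libraries rescaled to a common total 12 of the interferon-stimulated genes were called.

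**Figure D4:**
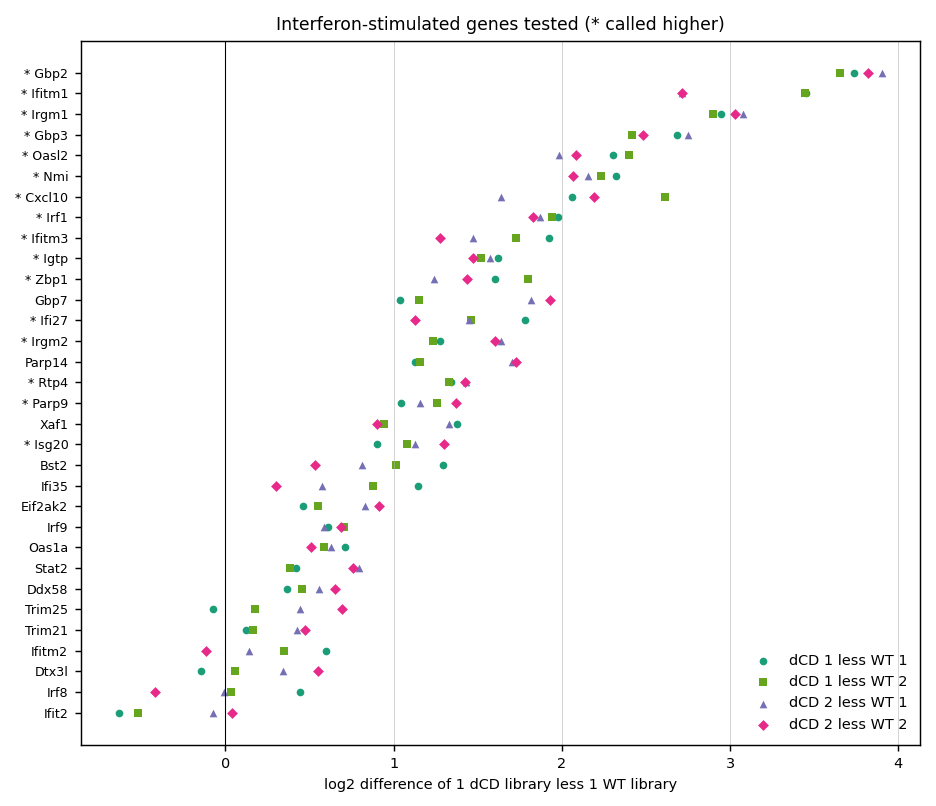
Log2 difference of 1 dCD library less 1 WT library (x axis) for 32 of the interferon-stimulated genes tested (rows), with 1 symbol for each of the 4 pairings and an asterisk before the 16 genes called higher. From Gbp2 down to Trim21 nearly all symbols lie to the right of 0, with Trim25 the exception, and the lowest 4 rows straddle it.

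Antigen presentation, which loads peptides from the proteasome onto class I molecules, had fewer calls. Of 17 genes tested 3 rose (17.6%, beside 2.53% of all genes) and 14 did not pass, and the median log2 difference was 0.68. In 14 of the 17 both dCD libraries lay above both WT libraries (82.4%, beside 26.1% of all genes). Only 12 of the list had a value of at least 1 in both WT libraries, so part passed the filter through dCD. The immunoproteasome subunit gene Psmb8 rose from 0.744 and 0.817 to 9.59 and 6.28 (log2 2.30 ± 0.23 SE) and the peptide transporter gene Tap2 from 0.510 and 0.902 to 4.89 and 4.64 (log2 1.77 ± 0.18 SE). H2-M3 was the third (log2 1.35), called with an adjusted p of 0.0346 and not without WT replicate 1 (0.0727). Other members did not pass. B2m, the light chain of class I molecules, stood at 33.4 and 35.6 in WT and 71.4 and 57.9 in dCD (adjusted p = 0.0741), and the proteasome activator gene Psme2 at 103 and 124 in WT and 373 and 244 in dCD (adjusted p = 0.0737). The most abundant, the chaperone gene Calr, overlapped (529 and 505 in WT, 549 and 517 in dCD), and Psmb9 varied within WT from 0.0892 to 4.24.

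Complement and inflammatory mediators had 5 genes higher (29.4%, beside 2.53% of all genes), 1 lower and 11 not passing of 17 tested. The median log2 difference was 0.76, and 13 of the list had a value of at least 1 in both WT libraries. Serping1, the inhibitor of the first complement component, rose from 0.620 and 0.405 to 6.10 and 5.65 (log2 2.19 ± 0.16 SE), the macrophage growth factor gene Csf1 from 3.56 and 3.48 to 10.4 and 12.5 (log2 1.46 ± 0.17 SE), and Spp1, which encodes osteopontin, from 4.20 and 4.43 to 50.4 and 43.5 (log2 3.17 ± 0.15 SE). Spp1 is also a naive pluripotency gene and was counted in that list as well. Icam1 and Relb rose by log2 1.27 and 1.30 and lost their calls without WT replicate 1 (adjusted p = 0.208 and 0.134) and without WT replicate 2 (0.0511 and 0.0705). Tlr2, a receptor for bacterial lipoproteins, fell by 0.99 on the log2 scale, and its call ended without WT replicate 1 (0.107) or 2 (0.0887).

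Further genes known mainly from white blood cells stood among the called genes that no list held. They were picked after their values were seen and get no test as a group. The lymphotoxin gene Ltb was at 0.104 and 0.0265 in WT and 6.11 and 4.80 in dCD. Laptm5, a lysosomal membrane gene of blood cells, was at 0.828 and 0.433 in WT and 6.21 and 6.39 in dCD. Il15ra, Il10, Cxcl16 and Bcl3 rose by log2 1.44 to 2.22, and their calls held without each library. These are low values, and whether all cells or few of them carried the transcripts cannot be told apart in bulk RNA.

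Of the X-linked germline genes 13 of 26 rose (50%, beside 2.53% of all genes), and those of the Xlr family lay side by side. Many genes of the Rhox, Xlr and Mage families are expressed in testis or early embryo and are silenced by DNA methylation in other cells. None fell and 13 did not pass, with a median log2 difference of 1.27. Both dCD libraries lay above both WT libraries in 21 (80.8%, beside 26.1% of all genes). Only 13 of the list had a value of at least 1 in both WT libraries. The other tested members passed the filter through dCD, which raises these shares. Chromosome X had the largest share of called genes of any chromosome with a call, with 32 of 480 genes higher and 1 lower (6.88%, against 1.7% to 4.98% on the autosomes), while its median log2 difference over all tested genes was 0.02. Between 73033981 and 73643514 on chromosome X, 10 of 14 tested genes rose, namely Pnma5, Xlr4a, Xlr3a, Xlr5a, Xlr5b, Xlr3b, Xlr4b, Xlr3c, Bgn and Dusp9. The other called members, among them Rhox5, Rhox6, Gm364 and Trap1a, lay elsewhere on the chromosome. The Xlr genes are near-identical copies that share reads, so they are not separate evidence.

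Xlr3a was at 1.14 and 1.02 in WT and 21.1 and 20.7 in dCD (log2 3.40 ± 0.15 SE, adjusted p = 0.00814 by limma). Pnma5, a paraneoplastic antigen gene, was at 5.95 and 6.24 in WT and 55.7 and 50.7 in dCD (log2 2.93 ± 0.14 SE). Rhox5, a reproductive homeobox gene, was at 10.1 and 12.6 in WT against 99.1 and 71.9 in dCD, and Trap1a, a tumour antigen gene, at 6.68 and 7.004 in WT and 86.4 and 66.5 in dCD. In these 4 genes the lower dCD library was at least several times the higher WT library. Bgn, which encodes the proteoglycan biglycan, and Dusp9, a phosphatase of ERK, rose by log2 0.94 and 0.91, and their calls ended without WT replicate 1 (adjusted p = 0.201 and 0.35) and without WT replicate 2 (0.233 and 0.37). Of the Mage genes tested, Mageb16 rose by log2 1.29 (adjusted p = 0.151 without WT replicate 1), while Maged1, Maged2, Mageh1 and Magee1, which are expressed in many tissues, had differences between -0.31 and 0.35.

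Other germline genes had smaller differences. Of 25 genes for piRNA, meiosis and germline silencing 4 rose (16%, beside 2.53% of all genes), none fell and 21 did not pass. The median log2 difference was 0.79, and 18 lay above both WT libraries in both dCD libraries (72%, beside 26.1%). In this list 22 genes had a value of at least 1 in both WT libraries, so part passed the filter through dCD. Tex19.1, which restrains retrotransposons, rose from 10.1 and 11.5 to 50.3 and 46.2 (log2 2.06 ± 0.14 SE), Hormad2 of the meiotic chromosome axis from 1.17 and 1.53 to 5.64 and 6.53, and the testis tubulin gene Tuba3a from 2.58 and 2.65 to 11.6 and 9.17. Stra8, a gate of meiotic entry, was called at 0.172 and 0.152 against 1.43 and 1.11, and not without WT replicate 1 (adjusted p = 0.11) or 2 (0.109). Sycp3, of the synaptonemal complex, had WT values of 24.5 and 26.2 and dCD values of 39.3 and 32.8 without passing (adjusted p = 0.211), and the groups of Mael, a piRNA pathway gene, overlapped. Outside the list, and picked after their values were seen, the germ cell transcription factor genes Sohlh2 (1.47 and 1.51 to 10.9 and 10.9) and Dmrt1 (6.03 and 6.47 to 20.7 and 18.9) rose, and both calls held without each library.

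The 2-cell-like list, genes that come on when the zygotic genome is first transcribed and in rare ESC, had 11 genes tested and 10 called (90.9%, beside 2.53% of all genes), all higher, with a median log2 difference of 1.75. None of its genes had a value of at least 1 in both WT libraries, so each passed the filter through dCD. Its summed level was 2.44 and 2.43 in WT against 63.9 and 60.3 in dCD, and 9 of 10 tested genes of the Zscan4 cluster on chromosome 7 (10794242 to 11614112) rose. A run of 10 of 12 tested genes on chromosome 12 (87514316 to 88324026), among them Gm8300 and Gm8332, and one of 6 of 6 on chromosome 10 (104142987 to 104188000), which includes Gm6763 and Gm21312, also rose, and copies within these runs share reads. The dCD libraries were close for Zscan4f (19.7 and 18.5) and further apart for Gm6763 (24.3 and 19.3) and Gm8332 (14.04 and 8.87). A higher level in every cell and more cells in that state cannot be told apart in bulk RNA, here and in the other lists.

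Naive pluripotency genes rose in part. Of 18 tested, 9 rose (50%, beside 2.53% of all genes), none fell and 9 did not pass, with a median log2 difference of 0.98. Only 14 of the list had a value of at least 1 in both WT libraries, so part passed the filter through dCD. Esrrb (0.325 and 0.350 to 4.89 and 5.99), Fbxo15 (1.45 and 2.05 to 14.1 and 12.0), Gbx2 (3.89 and 3.58 to 24.6 and 18.7), Tbx3 and Klf2 rose and held their calls without each library. Zfp42, which encodes REX1, rose from 14.0 and 14.0 to 29.3 and 27.4, and its call ended without WT replicate 1 (adjusted p = 0.291) or 2 (0.269), as did that of Tdh (0.116 and 0.107). Zfp42 ended a run of 3 of 3 tested genes on chromosome 8 (43129807 to 43306980) with Triml1 and Triml2, and Triml2 rose the most of them, from 4.40 and 5.37 to 35.1 and 33.3. Nanog (35.9 and 35.8 to 67.1 and 59.4, adjusted p = 0.0639), Klf4 (0.968 and 0.865 to 2.32 and 2.28) and Sox2 (29.4 and 26.7 to 47.5 and 45.3) were higher in both dCD libraries without passing.

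Formative genes were not called in either direction. Of 21 tested, 0 passed in the limma fit (at an unadjusted p under 0.05, 2 were higher and 4 lower), and the median log2 difference was -0.21. Of these genes 11 lay below both WT libraries in both dCD libraries (52.4%, beside 17.9% of all genes) and 4 above (19%, beside 26.1%). The nearest to the threshold was Pim2, a survival kinase, at 651 and 651 in WT and 326 and 289 in dCD (log2 -1.08, adjusted p = 0.0526), which passed with libraries rescaled to a common total (0.0477). Dnmt3b, a de novo DNA methyltransferase, stood at 854 and 722 in WT and 431 and 609 in dCD (adjusted p = 0.325), and Lef1 at 46.0 and 40.8 in WT and 23.3 and 26.8 in dCD (adjusted p = 0.084). Otx2 overlapped between genotypes, with 38.7 and 26.3 in WT against 18.95 and 44.6 in dCD.

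The DNA methylation list showed 2 genes higher among 31 tested (6.45%, beside 2.53% of all genes) and none lower, with a median log2 difference of -0.09. Dnmt3l, the cofactor of de novo methyltransferases, rose from 7.94 and 8.31 to 33.2 and 25.9 (log2 1.73 ± 0.18 SE), and Zfp57, which keeps methylation at imprinted loci, from 25.9 and 27.8 to 73.1 and 71.3 (log2 1.40 ± 0.13 SE, adjusted p = 0.0200 by limma). Of 27 imprinted genes, expressed from 1 parental allele, 2 rose (7.41%), 1 fell and 24 did not pass. Of all genes 2.53% rose and 0.504% fell. The median of the imprinted genes was -0.29, and 15 lay below both WT libraries (55.6%, beside 17.9% of all genes). Grb10, an adaptor that restrains insulin signalling, fell from 49.9 and 40.5 to 8.53 and 13.4 (log2 -1.97 ± 0.25 SE). Peg10 and its neighbour Sgce, both expressed from the paternal allele, rose by log2 1.91 and 1.44. The Peg10 values were 44.8 and 33.4 in WT against 117 and 187 in dCD, and Sgce lost its call without WT replicate 1 (adjusted p = 0.0769).

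Glucose uptake genes were among the most abundant calls. Slc2a1, the GLUT1 transporter (chromosome 4, 119108711 to 119137983), was at 75.9 and 79.2 in WT and 308 and 254.5 in dCD (log2 1.84 ± 0.16 SE, adjusted p = 0.0186 by limma). Slc2a3, the GLUT3 transporter, was at 58.7 and 54.0 in WT and 165 and 209 in dCD (log2 1.70 ± 0.17 SE). Both calls held without each library, while that of Slc2a3 ended with libraries rescaled to a common total (adjusted p = 0.0867). The rest of the glycolysis list did not pass: 2 of 33 rose (6.06%, beside 2.53% of all genes), both of them these transporters. The median was 0.20, with 15 genes above both WT libraries (45.5%, beside 26.1% of all genes). Txnip, which is induced by glucose and withdraws glucose transporters from the membrane, was picked after its values were seen and rose from 23.9 and 23.3 to 77.5 and 92.9. The solute carriers as a whole had 4 higher (2.12%) and 2 lower of 189, beside 2.53% and 0.504% of all genes. Slc27a2, a fatty acid transporter and acyl-CoA synthetase, fell from 46.0 and 41.9 to 18.4 and 19.14, a call that ended without WT replicate 1 (adjusted p = 0.152) or 2 (0.081).

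Respiration and the tricarboxylic acid cycle had no call: 0 of 65 nuclear subunit genes of oxidative phosphorylation and 0 of 29 genes of the cycle passed in the limma fit. At an unadjusted p under 0.05 these were 1 higher and 0 lower for respiration, and 1 higher and 1 lower for the cycle. The pairings of libraries disagreed for short, abundant transcripts. The median of the 77 cytosolic ribosomal protein genes was 0.71 for dCD 1 less WT 1, 0.30 for dCD 1 less WT 2, -0.01 for dCD 2 less WT 1 and -0.36 for dCD 2 less WT 2, and 1 of them, the testis-enriched copy Rpl39l, rose (8.58 and 11.9 to 86.5 and 53.4). Ribosome biogenesis genes held 1 sign in the pairings, with medians of -0.20, -0.14, -0.22 and -0.23 and 13 of 24 below both WT libraries in both dCD libraries (54.2%, beside 17.9% of all genes), but 0 passed by limma (at an unadjusted p under 0.05, 0 higher and 1 lower). The mitochondrially encoded genes took 3.63% and 3.93% of the summed values in WT and 2.63% and 3.01% in dCD. Their sums were 29902 and 36228 in WT and 27129 and 24465 in dCD. Of these mt-Atp8 alone gave 10380 and 8678 in WT and 3487 and 3181 in dCD, without passing. It was the only 1 of the 13 genes whose groups did not overlap, so the lower share is no general drop of these transcripts.

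Small heat shock protein genes rose, and the large chaperones did not pass. Hspb1 (HSP27) was at 40.2 and 46.1 in WT and 265 and 162 in dCD (log2 2.24 ± 0.27 SE, adjusted p = 0.0322 by limma), and Cryab at 8.396 and 7.48 in WT and 48.3 and 30.3 in dCD (log2 2.14 ± 0.26 SE). Hspb8 rose by log2 1.26 and was not called without WT replicate 1 (adjusted p = 0.13) or 2 (0.0944). These are 12.5% of the 24 cytosolic heat shock genes (beside 2.53% of all genes). The other 21 did not pass, and the median was -0.02. Hsp90aa1 had WT values of 2702 and 2302 and dCD values of 2175 and 2487, and the inducible gene Hspa1b was lower in dCD without passing (5.65 and 6.03 to 4.10 and 3.79, adjusted p = 0.217).

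Immediate early genes, which growth factors and stress switch on within minutes, lay higher in nearly all cases, though few passed. Of 14 tested 3 rose (21.4%, beside 2.53% of all genes), none fell, and 13 lay above both WT libraries in both dCD libraries (92.9%, beside 26.1%), with a median log2 difference of 0.77. The AP-1 genes Junb (10.5 and 11.2 to 31.3 and 25.1) and Jun (7.16 and 6.19 to 15.5 and 16.2) and the ERK phosphatase gene Dusp5 rose, and all 3 calls ended without WT replicate 1 (adjusted p = 0.0925, 0.121 and 0.201) and without WT replicate 2 (0.0622, 0.233 and 0.148). Dusp1, Zfp36 and Ier3 lay just outside the threshold (adjusted p = 0.0526, 0.051 and 0.0539), and none of the list passed with libraries rescaled to a common total. Among apoptosis and p53 effector genes 3 of 30 rose (10%, beside 2.53% of all genes), all growth arrest genes, and 27 did not pass. Gadd45b rose from 2.98 and 3.45 to 18.2 and 14.6, Gadd45a from 16.2 and 16.9 to 53.5 and 41.6, and Btg2 from 12.9 and 14.9 to 36.2 and 34.5 (not called without WT replicate 1, adjusted p = 0.101). Cdkn2a, the inhibitor of CDK4 and CDK6, was the only called gene among 25 of the G1 list (4%, beside 2.53% of all genes). It rose from 16.1 and 18 to 68.3 and 45.7.

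Genes of epithelia and of the cell surface rose as well. Of 23 keratin, cornified envelope, annexin and S100 genes 6 rose (26.1%, beside 2.53% of all genes), none fell and 17 did not pass, with a median log2 difference of 0.66, and all 6 calls held without each library. In this list 18 genes had a value of at least 1 in both WT libraries, so part passed the filter through dCD, which raises the share called. Anxa2, a membrane-binding annexin, was at 42.1 and 47.4 in WT and 147 and 121 in dCD (log2 1.56 ± 0.16 SE), Anxa3 at 8.88 and 12.5 in WT against 53.5 and 45.8 in dCD, and Krt19 at 2.92 and 3.01 in WT and 20.4 and 12.2 in dCD. Sfn, which encodes 14-3-3 sigma, rose from 30.6 and 32.8 to 121 and 82.3. S100a10, the partner of Anxa2 in a complex, stood at 63.2 and 82.8 in WT against 276 and 173 in dCD and did not pass (adjusted p = 0.0736). The desmosome gene Pkp3 rose too. Trophoblast markers, of an extraembryonic epithelium, moved with these genes, with 4 of 7 tested called higher (57.1%, beside 2.53% of all genes). Their median log2 difference was 1.10, and their part in the result was not tested. Only 4 of the list had a value of at least 1 in both WT libraries, so part passed the filter through dCD. Tfap2c (0.458 and 0.382 to 3.33 and 2.83) and Krt19 held their calls without each library, Cdx2 and Plac1 lost them without WT replicate 1 (adjusted p = 0.0854 and 0.158), and Eomes overlapped. In the matrix, Loxl4 rose by log2 1.21, and among 49 proteases and inhibitors Mmp9 rose from 0.350 and 0.166 to 2.82 and 2.91 with a call that held without each library.

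Genes lower in dCD were fewer, and several belong to connective tissue and posterior mesoderm. Col3a1, a fibrillar collagen gene, was at 44.1 and 40.8 in WT and 1.15 and 2.44 in dCD (log2 -4.00 ± 0.26 SE, adjusted p = 0.0124 by limma), Col1a1 at 8.69 and 8.06 in WT against 1.41 and 2.31 in dCD, and Postn, a matrix protein gene, at 3.71 and 2.91 in WT and 0.131 and 0.204 in dCD. These are the 3 calls among 9 tested fibroblast markers (0.504% of all genes fell), 7 of which lay below both WT libraries (77.8%, beside 17.9% of all genes). The summed level of the marker list was 84.6 and 80.5 in WT and 25.3 and 27.3 in dCD. Col3a1 alone gave 44.1 and 40.8 of the WT sums, so most of that drop is this gene. Of the other members, Col1a2 stood at 4.17 and 3.89 in WT and 5.21 and 7.69 in dCD, Twist2 overlapped, and Fap, Pdgfrb and Lum were under the filter, and the part of such cells in the result was not tested. Another fibrillar collagen gene, Col5a2, rose from 1.59 and 1.38 to 5.17 and 7.31, a call that held without each library. Igfbp5 and Igfbp7, which bind insulin-like growth factors, fell by 1.59 and 1.63 on the log2 scale.

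Of 39 Hox genes 7 were tested, 1 rose and 5 fell (0.504% of all genes fell). Those that fell were Hoxc10, Hoxd10, Hoxa10, Hoxa9 and Hoxb9, all from the posterior part of the clusters. Hoxd10 (0.194 and 0.104 in dCD), Hoxa10 (0.438 and 0.551) and Hoxc10 were under 1 in both dCD libraries. These genes passed the filter through WT, which favours a fall in this list. Hoxc10 was at 3.96 and 4.39 in WT and 0.275 and 0.196 in dCD (log2 -2.07 ± 0.14 SE), and Hoxb9 lost its call without WT replicate 2 (adjusted p = 0.0843). Streak and mesoderm markers went both ways. T (brachyury) rose from 4.25 and 3.75 to 17.8 and 18.2 and the peptide gene Apela from 13.8 and 16.3 to 53.9 and 44.5, while Nkx1-2, a gene of caudal epiblast, fell from 10.2 and 8.79 to 1.73 and 1.61 and Wnt8a from 5.29 and 5.47 to 2.23 and 1.81 (not called without WT replicate 1 or 2, adjusted p = 0.152 and 0.153). In the Nodal pathway Lefty2, a secreted inhibitor, rose from 24.5 and 26.5 to 82.1 and 78.6. The Wnt list had 1 gene higher and 2 lower of 35, beside 2.53% and 0.504% of all genes, with a median log2 difference of -0.25. Of the 35, 16 lay below both WT libraries (45.7%, beside 17.9% of all genes) and 9 above (25.7%, beside 26.1%). In the Wnt list the target gene Sp5 rose from 0.171 and 0.191 to 6.196 and 4.001, and the secreted inhibitor Sfrp2 fell from 30.6 and 31.4 to 12.4 and 11.03 (not called without WT replicate 1 or 2, adjusted p = 0.0608 and 0.0728).

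The remaining genes that fell had no shared role in the lists. Kcnj3, an inward-rectifier potassium channel gene (chromosome 2, 55435970 to 55598145), was at 15.9 and 12.8 in WT and 0.639 and 1.02 in dCD (log2 -3.07 ± 0.20 SE), and Sema6a, an axon guidance gene, at 54.7 and 41.6 in WT and 8.29 and 13.6 in dCD (log2 -2.07 ± 0.28 SE). Ppp4r4, a phosphatase regulatory subunit gene, and Fam49a fell by 1.84 and 1.79 on the log2 scale. The calls of Arhgap45 (12.6 and 12.1 to 4.04 and 4.27), Gnai1, 2900011O08Rik, Rab25, Zfp36l2 and Dab1 did not hold without each library, with adjusted p without WT replicate 2 of 0.0534, 0.0668, 0.12, 0.139, 0.122 and 0.344. Zfp36l2, which speeds the decay of mRNAs with AU-rich elements, was the most abundant of them, at 79.3 and 67.1 in WT and 34.1 and 36.4 in dCD. Among receptors, Calcr, the calcitonin receptor gene, was picked after its values were seen and fell from 6.98 and 5.45 to 0.886 and 1.55. Pseudogenes gave the extreme differences. Gm12918 fell from 211 and 130 to 2.64 and 1.88e-05, and Gm10241, at 0 and 6.05e-06 in WT, had 81.5 and 219 in dCD.

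**Figure D5:**
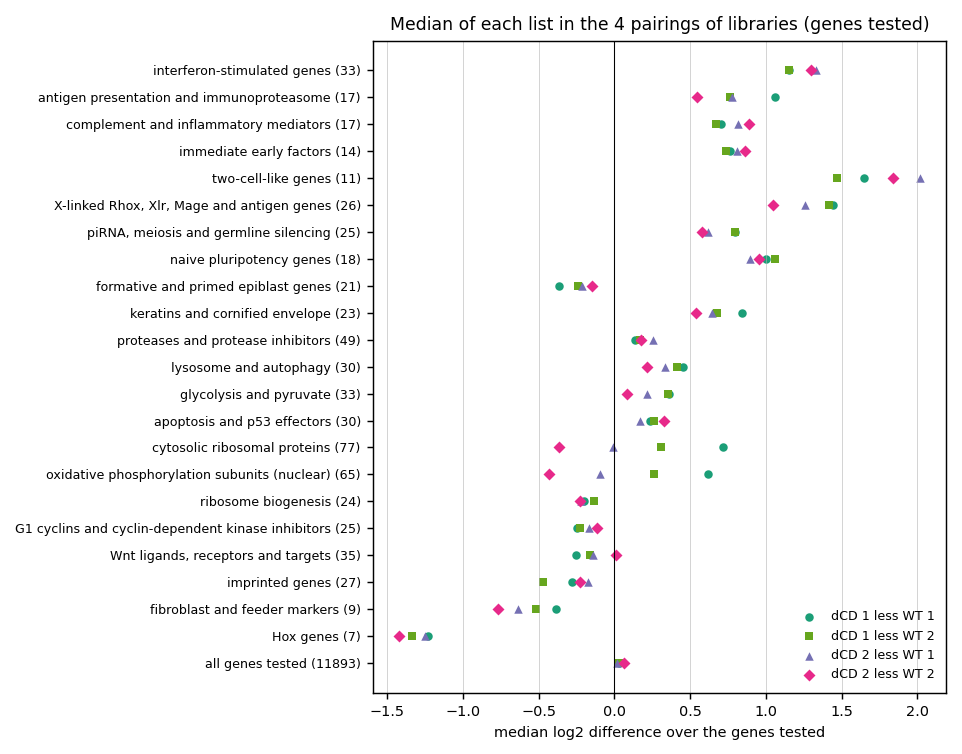
Median log2 difference (x axis) of 22 gene lists and of all genes tested (rows, with the number of genes tested in parentheses) in each of the 4 pairings of a dCD with a WT library (symbols). Interferon-stimulated, 2-cell-like and X-linked germline lists stay right of 1 in all 4 pairings and Hox genes left of -1, while ribosomal protein and oxidative phosphorylation lists cross 0.

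Genes linked to enhancers were compared because the mutated enzymes act there, using the study's own links of enhancers to genes from its other experiments. PGCLC enhancers were linked by capture Hi-C contacts in ESC to PGCLC genes only, a set that included naive regulators such as Esrrb. EpiLC and EpiSC enhancers were linked by distance to genes specific to that stage. The sets were thus chosen by expression and linked by unlike methods. Of 150 tested genes linked to EpiLC enhancers 5 rose (3.33%) and 4 fell, and of 134 linked to EpiSC enhancers 6 rose (4.48%) and 5 fell. Of all genes 2.53% rose and 0.504% fell. The median log2 differences of these sets were -0.06 and -0.03. For PGCLC enhancers of Group I, which the study defined by more H3K4me1 in EpiLC than in EpiSC, 13 of 152 rose (8.55%, against 2.53% of all genes) and none fell. For Group II 5 of 82 rose (6.1%) and none fell, and the medians were 0.03 in both. The groups sort enhancers and not genes. A gene linked to enhancers of both groups was counted in both, so these are not separate sets of genes. The Group I genes that rose include Upp1, Spp1, Esrrb, Fbxo15, Tfap2c, Dmrt1, Gadd45a and Gtsf1l, several of which are in the naive and germline lists above. Of the 152, 43 lay below both WT libraries in both dCD libraries (28.3%, beside 17.9% of all genes) and 57 above (37.5%, beside 26.1%). With libraries rescaled to a common total 7 of the genes linked to PGCLC enhancers Group I were called. Of the EpiLC-linked genes, Lefty2 rose and Sema6a, Rab25, Galnt3 and Pou2f2 fell.

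Some large differences that did not pass rested on a single library. Of 118 genes with a mean of at least 5 and a difference of at least 2-fold that were not called, 17 overlapped between genotypes and 21 were pseudogenes. Gm12671 and Gm10359, with the same 4 values and hence shared reads, stood at 561 and 418 in WT, 0.0964 in dCD 1 and 508 in dCD 2. Gm5537, Gm13502, Gm10171 and Eif4a-ps4 were also near 0 in dCD 1 only, at 0, 0, 0.00798 and 8.82. Cbx3-ps6 was high in dCD 2 alone (102.5), and Eif2b5, a translation factor subunit gene, was at 0.404 and 4.79 in WT, 35.5 in dCD 1 and 0 in dCD 2. The Gm13502 log2 difference turned to 1.12 without dCD replicate 1.

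The same genes were then read in the 4 EpiSC libraries, which share no sample with the EpiLC fit. EpiSC are the later primed state, grown in activin A and bFGF. Of the 301 genes higher in dCD EpiLC, 134 had both EpiSC dCD libraries above both WT libraries (44.5%, against 33.8% of all genes tested) and 65 had them below (21.6%, against 37.4%). Of the 60 lower genes 29 lay below (48.3%) and 21 above (35%). Xlr3a and Kcnj3 kept their size in EpiSC, with log2 differences of 2.79 and -3.09, while Gbp2 and Rhox5 had -0.31 and -0.32 there.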

How the data were processed

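RNA was extracted with an innuPREP kit, and bulk libraries were made with a stranded TruSeq kit. The authors quantified the reads with kallisto and summed transcripts to genes in sleuth against Ensembl annotation 96 (mm10). Tool versions: not given in the sources used here. The deposited values are a signal per gene. Their header says TPM, as the plan had assumed, but column sums ran from 813537 to 1033290 in the 4 libraries, so they were read as TPM times a factor per library. Such values hold no counts, and neither depth nor its precision can be given. A further 6 columns of no sample here were not used.

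Symbols and positions came from GENCODE M21 for 99.25% of 32334 genes. Coding genes on chromosomes 13 to 19 were covered at 69.75% (98.42% elsewhere), and others there are not analysed here. Differences were fitted in R 4.3.3 with limma 3.58.1 (1 mean per genotype, eBayes with a mean trend) on log2(value + 1) of the 4 libraries, a scale that understates changes of low genes. Benjamini-Hochberg adjustment ran over all genes tested, with calls under 0.05. Lists were described by counts and medians with no test. Where a library was left out, the lone library of its genotype was assumed to vary like the other genotype.

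Named genes required a call, a symbol, a mean of 5 or more and no overlap. They were the 12 with the smallest p and the 10 with the largest difference of values in each direction. Added to these were up to 4 called members of each list (otherwise up to 2 with the highest level), 8 uncalled genes of at least 2-fold with the largest replicate difference, runs of at least 3 called genes no more than 200 kb apart, and a panel of 12 genes. Other genes named are further list members or genes the text marks, chosen after their values were seen. The members and lists were chosen with earlier results of these data known. Enhancer links were taken from the study's supplementary tables. Alternatives were another pseudocount, filter, scaling, variance or sample set, removal of mitochondrial genes or of the length trend, a replicate block, and each library left out. A few members of the lists are counted but not reported here by name.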

Additional observations from a re-analysis of the deposited data

Results flagged for a closer look

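The effect of dCD was also estimated in EpiSC, and for 28 of the 38 genes named for the smallest p or the largest difference in EpiLC the effects at the 2 stages differed (limma fit of all 8 libraries, adjusted p under 0.05 for EpiSC less EpiLC over all genes tested). Of all 11893 genes 1042 (8.76%) passed that test. The 38 genes were chosen for their EpiLC effects, which enter the stage difference, so a smaller effect in EpiSC is favoured by that choice and the values are a description. Among the genes higher in dCD EpiLC, the log2 difference of the effects was negative in all 19, namely Upp1 (-3.06), Gm20765 (-3.63), Gm21312 (-3.63), Gbp2 (-4.09), Gm6763 (-4.08), Gm8764 (-4.08), Gbp2b (-3.55), Zscan4f (-3.56), Spp1 (-3.05), Irgm1 (-1.51), Slc2a1 (-2.33), Hspb1 (-2.24), Gm10241 (-7.12), Slc2a3 (-0.91), Ifitm3 (-1.64), Peg10 (-1.57), Anxa2 (-1.01), Rhox5 (-3.12) and Ifitm1 (-3.36). The EpiSC values of Gm6763, Gm8764 and Zscan4f gave a log2 difference of 0, and the list holds pairs with equal values (Gm20765 with Gm21312, and Gm6763 with Gm8764) that share reads. Among the genes lower in dCD EpiLC it was positive for Col3a1 (4.89), Car2 (1.04), Gm12918 (11.36), Gnai1 (1.44), Sema6a (1.49), Grb10 (1.93) and Dab1 (0.97), and negative, so a larger fall in EpiSC, for Arhgap45 (-1.10) and Slc27a2 (-1.55). The effect was of the opposite sign in EpiSC for Col3a1 (log2 0.89) and the pseudogene Gm12918 (log2 4.91). Groups of 2 libraries are too small for a test of single outlying samples.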

How the results depend on the processing

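With no filter on low values 21478 genes were tested and 0 were called higher and 0 lower by limma (smallest adjusted p 0.0526, with 2171 higher and 921 lower at an unadjusted p under 0.05). In the limma fit of the 11893 genes the calls, 301 higher and 60 lower, became 49 and 5 with a mean of at least 5 (8632 genes tested, 136 and 24 of the calls among them), 150 and 24 with libraries rescaled to a common total, 139 and 22 with mitochondrial genes removed and the rest rescaled, 572 and 177 with the length trend removed, and 959 and 337 with all 8 libraries in 1 fit. Of the main calls 143 and 22 were kept under the common total and 190 and 55 under quantile normalization, which called 199 higher and 80 lower. Genes higher numbered 226 and genes lower 47 with a pseudocount of 5. Robust variances and a pseudocount of 0.1 left both counts within 1.5 times. Leaving out 1 library each gave 247 to 800 genes higher and 45 to 350 lower. The cause of these shifts was not tested. Of 237 named genes 35 changed sign in some setting, none of them a called gene, and 25 did so without dCD replicate 1. Among these the Gm13502 log2 difference ranged from -5.46 to 1.12 over the libraries left out, and without dCD replicate 1 it passed the threshold with the opposite sign. The replicate block gave 398 higher and 89 lower and kept 282 and 53 of the calls; same-numbered libraries deviated in opposite directions (correlation -0.616), so the numbers only share a label. A crossed block, chosen after seeing the data, gave 1610 higher and 783 lower. Depth sets no limit that can be stated, since the values keep no counts.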
